A study of Ovis aries with 4 samples.

Results

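C1QA (ENSOARG00020017135), C1QB (ENSOARG00020016982) and C1QC (ENSOARG00020017086) encode the A, B and C chains of C1q. They were found by their symbols among the 26478 listed genes, and all 3 of the 3 were present in both kinds of library. The series sequenced frozen sheep striatum, a deep region of the brain, in 4 droplet libraries. Whole cells were freed with papain and nuclei by homogenising in a detergent buffer. Replicate 1 of each kind came from pooled material of sheep 1 and 2 and replicate 2 from sheep 3 and 4, all 5 years old, with no treatment or genotype in the labels. The protocol text gives animals 2 and 3 for the second suspension of cells, and the sample titles were followed. With 2 pools a kind, spread between libraries mixes animals and handling, and the breed and sex of the animals are not given in the sources used here.

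C1q is the recognition protein of the classical complement pathway. Its A, B and C chains, each with a collagen-like tail and a globular head, assemble together into 1 molecule that binds antibody on surfaces, dying cells and other targets. Bound C1q activates the proteases C1r and C1s, which in turn lead to cleavage of C3, and C3 fragments mark surfaces for uptake. In the brain, microglia, the resident macrophages, are the chief known source of C1q, and C1q and C3 are known for marking synapses for removal. The 3 genes stand next to each other in mammalian genomes. In the RefSeq table of assembly ARS-UI_Ramb_v3.0, they followed each other in the order C1QB, C1QC and C1QA, with EPHB2 beyond C1QB, EPHA8 beyond C1QA and an unnamed locus between C1QB and C1QC. No coordinates are given because the build of the deposited counts is not stated.

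A UMI, or unique molecular identifier, marks 1 captured RNA molecule, and a barcode marks 1 droplet. From whole cells came 1115058 UMIs in 2162 barcodes and 19241918 in 32500, and from nuclei 70473292 in 8815 and 51102420 in 8723. Leaving mitochondrial genes aside, 125974 and 2512837 UMIs remained for whole cells and 69924470 and 50705635 for nuclei. Pairs of libraries shared 2 to 87 barcode sequences. Counts come from the end of each transcript, so levels are compared between samples and not between genes.

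C1q RNA was sparse in every library. For C1QA, whole cells replicates 1 and 2 had 1 and 67 UMIs, and nuclei replicates 1 and 2 had 314 and 322. C1QB had 4, 79, 161 and 138 UMIs in that order of libraries. C1QC had 0, 32, 302 and 163. Whole cells replicate 1 thus rested on 5 C1q UMIs in all, and the 0 for C1QC allows up to 23.8 CPM of non-mitochondrial UMIs, CPM being a gene's UMIs in 1000000 UMIs of the set named beside it (3 counts; intervals and limits cover counting error only).

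The C1q genes were lower in nuclei than in whole cells as a share of non-mitochondrial RNA. C1QA stood at 7.94 and 26.7 CPM of non-mitochondrial UMIs in whole cells and at 4.49 and 6.35 in nuclei. C1QB stood at 31.8 and 31.4 in whole cells and at 2.30 and 2.72 in nuclei. C1QC stood at 0 and 12.7 in whole cells and at 4.32 and 3.21 in nuclei. For C1QA and C1QB each nuclei library lay below each whole cells library, while for C1QC the whole cells libraries lay on both sides of the nuclei libraries. The 0 of C1QC allows up to 23.8, which is above both nuclei libraries. In all these sums, fewer microglia and less C1q RNA per cell cannot be told apart.

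In the fit across all genes with TMM factors, which scale libraries to a common set of genes, all 3 genes were called lower in nuclei, against 22.4% of 15781 genes called lower. The log2 fold change of C1QB was -3.74 (SE 0.47, edgeR quasi-likelihood test, adjusted p = 7.83e-08). That of C1QA was -2.25 (SE 0.48, edgeR adjusted p = 0.000212) and that of C1QC was -1.68 (SE 0.60, edgeR adjusted p = 0.0187). With the animal pool as a block, C1QB stayed called (-3.64, edgeR adjusted p = 0.000237), while C1QA (-1.88, adjusted p = 0.0789) and C1QC (-1.62, adjusted p = 0.142) did not. The calls of C1QA and C1QC also rested on single libraries. Without nuclei replicate 1 the edgeR adjusted p was 0.0544 for C1QA and 0.0598 for C1QC, and without nuclei replicate 2 it was 0.194 for C1QC. Without whole cells replicate 2 the log2 fold change of C1QA was -0.17, and C1QC then has 0 UMIs in whole cells and no usable fold change. C1QB was called without each library in turn, between -3.92 and -3.27.

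The direction depended on the scaling for C1QA and C1QC. In CPM of all genes, mitochondrial ones included, C1QA stood at 0.897 and 3.48 in whole cells and 4.46 and 6.30 in nuclei. C1QC stood at 0 and 1.66 in whole cells and 4.29 and 3.19 in nuclei on that scale. C1QB stood at 3.59 and 4.11 in whole cells and 2.28 and 2.70 in nuclei, lower in both nuclei libraries on both scales. With library size alone in the fit, 0 of 3 genes passed, against 82.6% of all genes called in either direction, and the log2 fold changes were 0.89 for C1QA (adjusted p = 0.148), -0.67 for C1QB (0.257) and 1.44 for C1QC (0.0609, all edgeR). Between these scalings the median log2 fold change of all genes moved by 3.05, from 0.61 to 3.66. A change of scaling shifts all genes by nearly the same amount, so values relative to that median could barely move and do not bear on the scaling. They went from -2.86 to -2.77 for C1QA, from -4.35 to -4.33 for C1QB and from -2.29 to -2.22 for C1QC. In whole cells most UMIs were mitochondrial, and the kinds of library were also counted with different versions of the counting program. The use of intronic reads is not given in the sources used here. The part of these differences in the result cannot be told apart from that of the kind of library.

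C1q UMIs were also set beside those of other microglial genes. The 17 other microglial markers came to 38 and 752 UMIs for whole cells and to 16181 and 16329 for nuclei. Per 100 of these, the C1q genes together had 13.2 and 23.7 UMIs in the whole cells libraries and 4.80 and 3.82 in nuclei. C1QB alone had 10.5 in each whole cells library and 0.995 and 0.845 in nuclei. C1QA had 2.63 and 8.91 in whole cells and 1.94 and 1.97 in nuclei, and C1QC had 0 and 4.26 in whole cells and 1.87 and 0.998 in nuclei. The 0 of C1QC stood beside 38 marker UMIs, too few to give its order in that pool. These ratios depended on the markers taken, since DOCK8 (7, 88, 3994 and 3734 UMIs) and INPP5D (2, 32, 4941 and 4483) made up a larger part of the sum in nuclei than in whole cells. TYROBP alone had 4, 128, 463 and 491 UMIs and AIF1 9, 210, 584 and 808, against 5, 178, 777 and 623 for the C1q genes together, and neither nuclei library had a lower ratio of C1q to either gene than both whole cells libraries. In the fit with TMM factors, 4 of the 17 markers were called lower in nuclei and 2 higher, with 22.4% and 29.8% of all genes called in those directions. The lower ones were AIF1 (-2.80), an actin-bundling protein, TYROBP (-2.63), a signalling adaptor, P2RY12 (-2.15), a purine receptor, and APBB1IP (-1.78), an adaptor of integrin signalling. The higher ones were INPP5D (2.46), a lipid phosphatase, and ARHGAP15 (5.27), a regulator of Rac. With library size alone all 17 markers had positive values, and 12 were called higher and 0 lower, with 79.4% and 3.16% of all genes called in those directions. C1QB had a lower value than each of the 17 markers with either scaling.

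**Figure D1:**
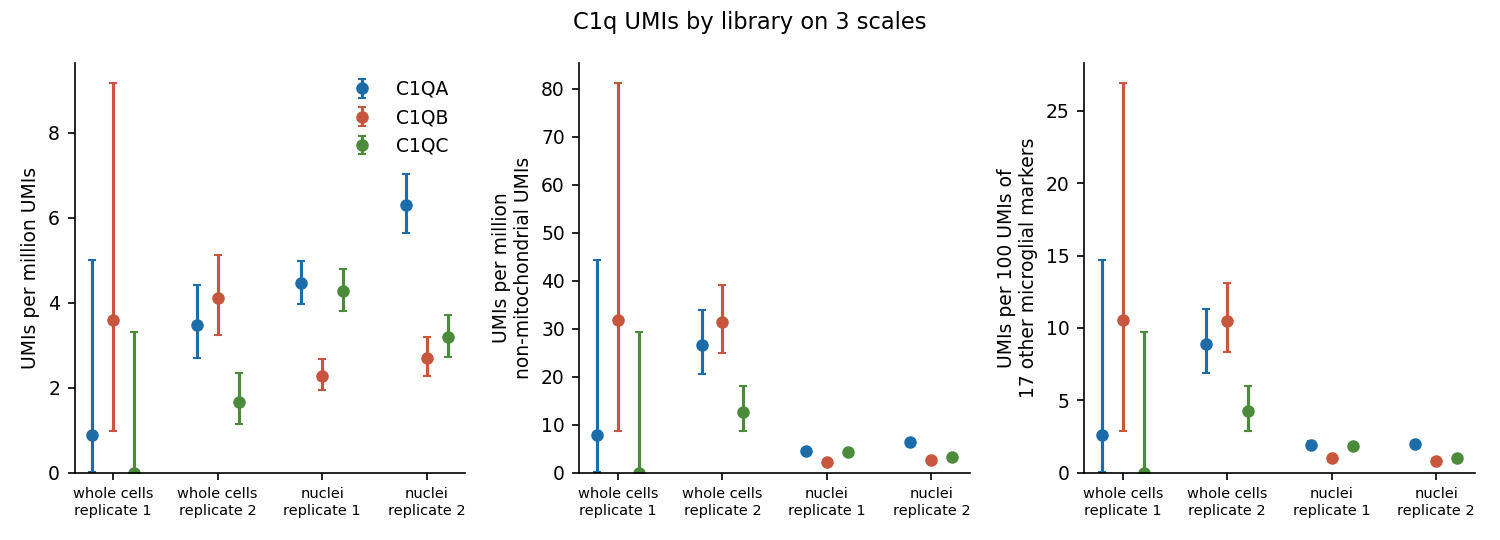
UMIs of C1QA, C1QB and C1QC in each of the 4 libraries, as CPM of all UMIs (left), as CPM of non-mitochondrial UMIs (middle) and per 100 UMIs of 17 other microglial markers (right). Points are single libraries and bars are exact Poisson 95% intervals. C1QB lay lower in both nuclei libraries on all 3 scales, while C1QA lay higher in nuclei on the first scale and lower on the others.

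**Figure D2:**
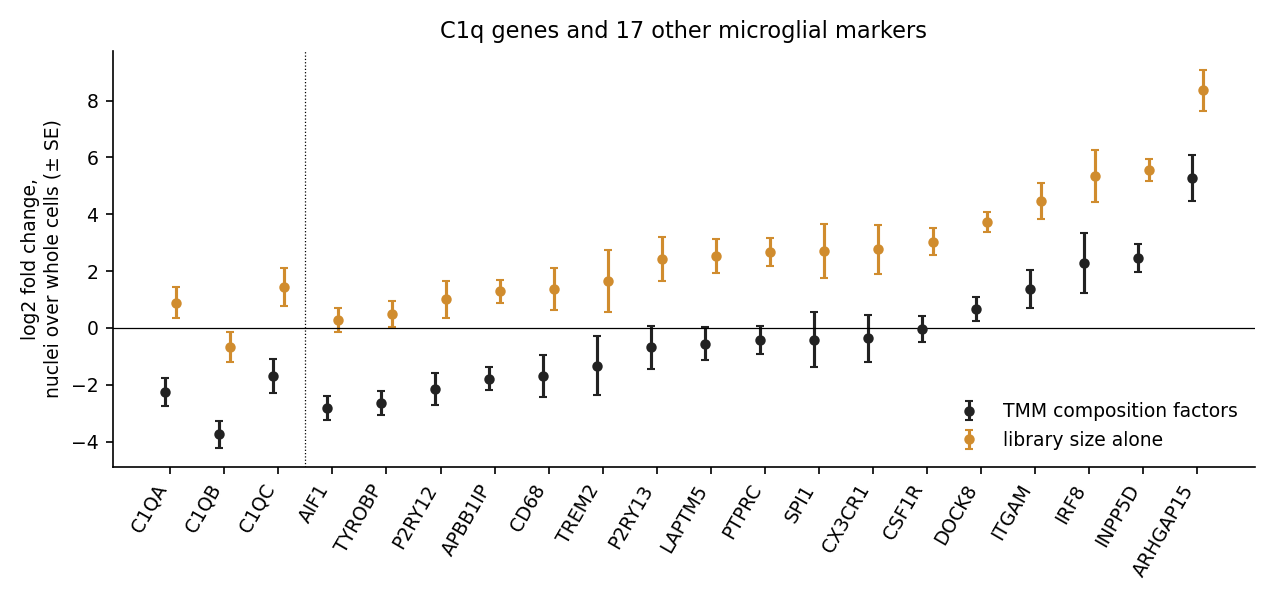
Log2 fold change, nuclei over whole cells, of the C1q genes (left of the dotted line) and of 17 other microglial markers, with SE bars, from the edgeR fits over 4 libraries with TMM factors (black) and with library size alone (orange). C1QB has the lowest value with either scaling, and only the C1q gene C1QB lies below 0 with library size alone.

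The make-up of the C1q UMIs, a ratio free of library size, differed between the kinds in the share of C1QB. C1QB made up 80.0% of the 5 C1q UMIs of whole cells replicate 1 (exact binomial 95% interval 28.4 to 99.5%) and 44.4% of the 178 of whole cells replicate 2 (37.0 to 52.0%). In nuclei it made up 20.7% of 777 (17.9 to 23.7%) and 22.2% of 623 (18.9 to 25.6%). The mean was 62.2% ± 25.2 in whole cells and 21.4% ± 1.01 in nuclei (SD, n = 2), and each nuclei library lay below each whole cells library. The exact two-sided permutation p was 0.333, the smallest that 2 against 2 libraries allow, for C1QB as for both other genes. C1QA made up 20.0% and 37.6% in whole cells and 40.4% and 51.7% in nuclei, and C1QC 0% and 18.0% in whole cells and 38.9% and 26.2% in nuclei. Both genes took a larger share in either nuclei library than in either whole cells library. The intervals of whole cells replicate 1 were wide, 0.505 to 71.6% for C1QA and 0 to 52.2% for C1QC. For C1QA those of whole cells replicate 2 (30.5 to 45.2%) and nuclei replicate 1 (36.9 to 44.0%) overlapped.

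The nuclei libraries differed from each other in C1QC. Its share of C1q UMIs was 38.9% in replicate 1 (exact binomial 95% interval 35.4 to 42.4%) and 26.2% in replicate 2 (22.8 to 29.8%), while the share of C1QB was alike. C1QA took the difference, with 40.4% (36.9 to 44.0%) and 51.7% (47.7 to 55.7%). With 1 nuclei library per pool of animals there is no test of this difference.

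Classes of nuclei were built by clustering without the C1q genes and named from marker lists that do not hold them. Other genes of the same nuclei built the classes, so the tests below concern the C1q genes alone. Microglia-like nuclei numbered 835 of 8310 (10.0%) in replicate 1 and 992 of 8388 (11.8%) in replicate 2. All 17 microglial markers had their highest level in this class in both libraries, which largely follows from naming the class by these markers. Its main cluster held 66 UMIs of lymphocyte markers and 4 of monocyte or neutrophil markers over 761 nuclei in replicate 1, and 36 and 6 over 753 in replicate 2. Markers of macrophages at the borders of the brain had 435 and 322 UMIs there. Astrocyte markers had 836 and 686, oligodendrocyte markers 742 and 525, and microglial markers 10265 and 8702.

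C1q RNA was concentrated in microglia-like nuclei. They held 70.7% of the C1q UMIs of clustered nuclei in replicate 1 (483 of 683, exact binomial 95% interval 67.1 to 74.1%) and 77.2% in replicate 2 (464 of 601, 73.6 to 80.5%). C1QA reached 106 and 81.8 CPM within the class, against 1.24 and 1.47 in all other nuclei. C1QB reached 56.3 and 34.6, against 0.620 and 0.691. C1QC reached 110 and 41.1, against 1.24 and 0.712. In CPM over the class, replicate 2 lay below replicate 1 for all 3 genes. For C1QA this order was not seen on other measures: it had 22.5 and 24.3 UMIs per 100 nuclei, and 131 and 152 CPM in the larger of the 2 clusters described below.

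All 3 genes were called higher in microglia-like than in other nuclei, against 14.3% of 16166 genes called higher (edgeR quasi-likelihood test on sums, library as a block). The log2 fold change was 5.65 for C1QA (SE 0.27), 5.62 for C1QB (SE 0.33) and 5.72 for C1QC (SE 0.28), with adjusted p of 4.20e-05, 4.41e-05 and 4.20e-05. Under the alternatives of clustering, naming, doublet removal, scaling and test, and in either library alone, the values ran from 5.22 to 6.18. The largest adjusted p was 0.00109, with no test in a single library. The 3 genes did not differ from each other by more than their SE in this contrast.

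**Figure D3:**
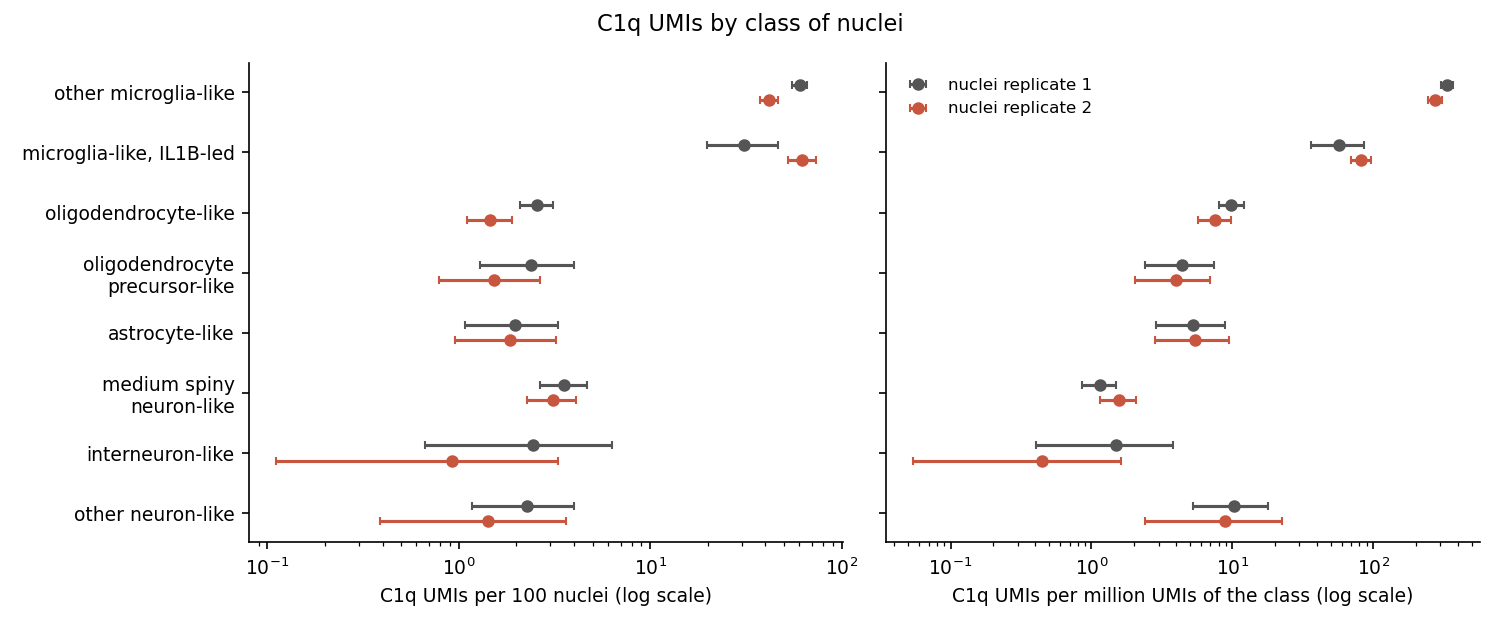
C1q UMIs (C1QA, C1QB and C1QC summed) per 100 nuclei (left) and as CPM within the class (right) in nuclei replicates 1 and 2, on log axes. Bars are exact Poisson 95% intervals. The other microglia-like nuclei stand at 60.4 and 41.8 UMIs per 100 nuclei, and the 6 remaining classes at 0.917 to 3.56.

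The other named classes all held C1q UMIs at a low rate per nucleus. C1q UMIs per 100 nuclei ranged from 1.96 in astrocyte-like to 3.56 in medium spiny neuron-like nuclei, named for the main striatal output neurons, in replicate 1. In replicate 2 they ranged from 0.917 in interneuron-like to 3.09 in medium spiny neuron-like nuclei. The interval of the latter (2.27 to 4.11) did not overlap that of oligodendrocyte-like nuclei in replicate 2, which had 1.46 (1.11 to 1.89), while in replicate 1 the intervals overlapped, at 2.65 to 4.68 and 2.08 to 3.12. Microglia-like nuclei had 57.8 and 46.8. In CPM the order was another, since medium spiny neuron-like nuclei had a median of 28460 and 16189 UMIs. They had 1.15 and 1.57 C1q CPM, and oligodendrocyte-like nuclei, at a median of 2201 and 1598 UMIs, had 9.86 and 7.52. Replicate 2 interneuron-like nuclei had 0 C1QA UMIs in 218 nuclei, which allows up to 0.673 CPM.

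The C1q UMIs outside the microglia-like class had the make-up of those within it. In replicate 1, C1QA, C1QB and C1QC made up 38.9%, 20.7% and 40.4% of the C1q UMIs in microglia-like nuclei and 40.0%, 20.0% and 40.0% in all other nuclei. In replicate 2 they made up 51.9%, 22.0% and 26.1% in microglia-like nuclei and 51.1%, 24.1% and 24.8% in all others. The intervals of the classes overlapped within each library for every gene, and the share of C1QC differed between the libraries in the same direction in both classes. Free RNA of microglia as a source of the UMIs in other nuclei was not tested.

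**Figure D4:**
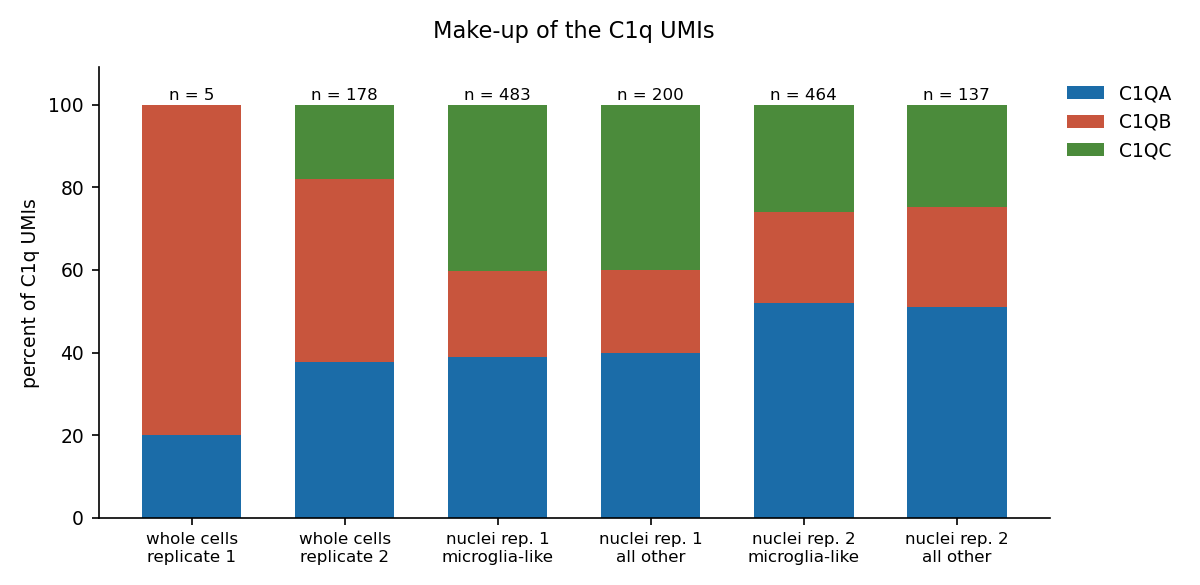
Percent of C1q UMIs that came from each gene, in the whole cells libraries and, for nuclei, in microglia-like and in all other clustered nuclei, with the number of C1q UMIs above each bar. C1QB takes 80.0% and 44.4% in whole cells and 20.0 to 24.1% in the 4 bars of nuclei, and C1QC takes more in nuclei replicate 1 than in replicate 2 in both classes.

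Detection in single nuclei was incomplete even in the microglia-like class. A C1q UMI was found in 38.4% of microglia-like nuclei of replicate 1 (321 of 835, exact binomial 95% interval 35.1 to 41.8%) and in 32.0% of replicate 2 (317 of 992, 29.1 to 35.0%). In all other nuclei the shares were 2.60% (2.25 to 2.98%) and 1.64% (1.36 to 1.95%). The median depth was 1727 and 1589.5 UMIs in microglia-like nuclei and 2745 and 2235.5 in the others. C1QA was found in 18.0% and 18.9% of microglia-like nuclei, C1QB in 10.8% and 9.27% and C1QC in 18.1% and 10.4%. Of the microglia-like nuclei with a C1q UMI, 65.4% and 71.9% had a single one, and the most in 1 nucleus was 5 in replicate 1 and 12 in replicate 2.

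At an equal depth of 1000 UMIs the shares were lower in both classes. The share with a C1q UMI was 27.6% and 20.2% of microglia-like nuclei and 0.911% and 0.566% of all others, with 68 and 156 microglia-like and 446 and 857 other nuclei left out as shallower. Among the 1377 and 1461 medium spiny neuron-like nuclei thinned in this way, 1 and 2 kept a C1q UMI. In oligodendrocyte-like nuclei the thinned share was 1.23% and 0.847%. Within the microglia-like class, the share with a C1q UMI was lowest in the shallowest 209 and 248 nuclei, the first of 4 equal bins of depth in each library, 32.5% and 21.8%, and ranged up to 44.5% and 39.1% in the others.

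UMIs of more than 1 C1q gene in a nucleus were counted among the carriers of each class. Among nuclei with any C1q UMI, 20.6% of microglia-like nuclei in replicate 1 (66 of 321, exact binomial 95% interval 16.3 to 25.4%) and 17.7% in replicate 2 (56 of 317, 13.6 to 22.3%) had UMIs of 2 or 3 of the genes. In all other nuclei these shares were 1.55% (3 of 194, 0.320 to 4.45%) and 4.13% (5 of 121, 1.36 to 9.38%). All 3 genes together were found in 4 and 9 microglia-like nuclei and in 0 and 1 others. Single genes were also found in far fewer of the other nuclei, 0.406 to 1.07% for each gene, and the part of this in the shares was not tested. At 1000 UMIs per nucleus the shares were 15.1% and 9.47% in microglia-like nuclei and 0% of 64 and 0% of 37 carriers in all others.

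Within the microglia-like class, carrying 1 gene went with a higher share of nuclei carrying another. Of nuclei with a C1QC UMI in replicate 2, 31.1% also had C1QA (32 of 103), against 17.4% of those with no C1QC. Of nuclei with a C1QA UMI there, 17.1% also had C1QC (32 of 187), against 8.82% of those with no C1QA. In replicate 1 the first of these pairs of shares was 21.2% and 17.3%, and the second was 21.3% and 17.4%. All 3 pairs of genes went this way in both libraries, and each pair gives the same direction whichever gene is taken first. The intervals overlapped for all 3 pairs in replicate 1 and for 2 of 3 in replicate 2, C1QA with C1QC being the exception. All other nuclei showed it too in replicate 2, where all 3 pairs went this way on 2 or 3 shared nuclei each, such as C1QA in 6.06% of 33 nuclei with C1QC and in 0.842% of those with no C1QC. In replicate 1, 2 of the 3 pairs did so there, on 1 or 2 nuclei, and C1QA and C1QB shared none. In microglia-like nuclei, median depths were 1706 to 1826.5 UMIs in nuclei with a gene and 1714 to 1735 in those without it in replicate 1, and 1725 to 1921.5 against 1546 to 1563 in replicate 2.

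**Figure D5:**
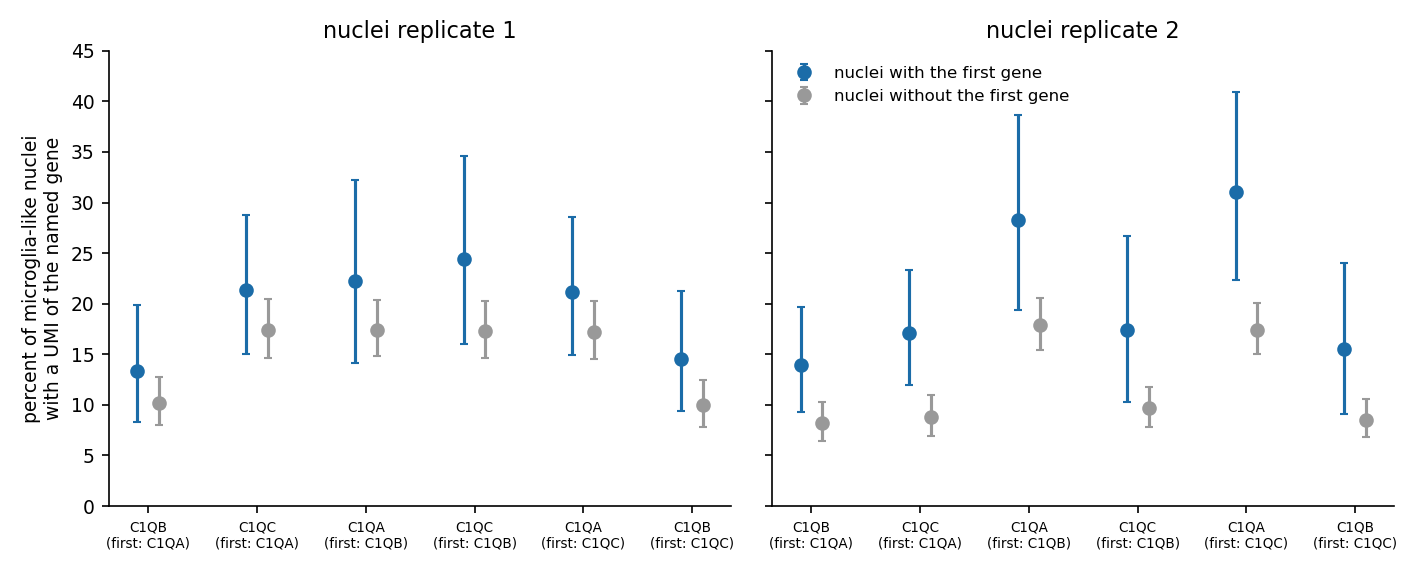
Percent of microglia-like nuclei with a UMI of the gene on the upper line of each axis label, among nuclei with (blue) and without (grey) the gene in brackets, in nuclei replicates 1 and 2. Bars are exact binomial 95% intervals. Every blue point is above its grey point, with overlapping bars in replicate 1.

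Outside the microglia-like class, C1q carriers were set against other nuclei for the 17 other microglial markers, pooled and by class. In replicate 2, a UMI of any of these was found in 35.5% of 121 carriers (exact binomial 95% interval 27.0 to 44.8%) and 26.0% of nuclei with no C1q (25.0 to 27.0%), at median depths of 2836 and 2229 UMIs. The deep medium spiny neuron-like nuclei gave 23 of the 43 carriers with a marker. In replicate 1 the shares were 24.2% (18.4 to 30.9%) and 21.3% (20.4 to 22.3%), with overlapping intervals. By class, the intervals did not overlap in astrocyte-like nuclei of replicate 1, with a marker in 8 of 14 carriers (28.9 to 82.3%) and in 161 of 699 other nuclei (20.0 to 26.3%), at median depths of 4354 and 2886 UMIs. In replicate 2, astrocyte-like nuclei had 16.7% of 12 carriers against 31.7%. Medium spiny neuron-like nuclei had 35.4% against 38.9% in replicate 1 and 67.6% against 46.9% in replicate 2. The part of depth in these shares was not tested. Among oligodendrocyte-like nuclei, a UMI of any of the 17 microglial markers was found in 11.5% of those with C1q and 9.85% of those without in replicate 1. In replicate 2 the shares were 14.5% and 11.1%. The intervals overlapped in both libraries.

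The microglia-like class was made of 2 clusters with different C1q levels. The larger one, with 761 and 753 nuclei, was led by CALCR, LRMDA, INPP5D and RUNX1 and had 335 and 276 C1q CPM. The smaller one, with 74 and 239 nuclei, was led by IL1B and IL1A, genes of inflammatory cytokines, and had 57.0 and 82.5 C1q CPM. Per 100 nuclei the larger cluster had 60.4 and 41.8 C1q UMIs and the smaller 31.1 and 62.3. The order of the clusters per nucleus was thus opposite in the libraries, and in CPM it was the same.

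Markers of other cell types were abundant in the IL1B-led cluster. Its nuclei had a mean of 21.8 and 18.2 UMIs of astrocyte markers, 16.1 and 35.5 of oligodendrocyte markers and 7.92 and 21.8 of oligodendrocyte precursor markers. The larger cluster had 1.10 and 0.911, 0.975 and 0.697, and 0.212 and 0.290. Microglial markers had a mean of 14.4 and 13.99 UMIs in the IL1B-led cluster, fewer than astrocyte or oligodendrocyte markers, and 13.5 and 11.6 in the larger one. Per 10000 UMIs they stood at 26.5 and 18.5, against 74.8 and 76.2 in the larger cluster. The IL1B-led cluster met the naming rule with 11 microglial markers raised. Values of the microglia-like class include it in the main setting. The median depth was 4814.5 and 4676 UMIs in the IL1B-led cluster and 1657 and 1391 in the larger one. With the 8% highest doublet scores removed, 8 of the 74 and 70 of the 239 nuclei of the IL1B-led cluster remained. The part of RNA of other cell types in the C1q level of the IL1B-led cluster was not tested.

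The share of C1q UMIs assigned to microglia-like nuclei in replicate 2 moved with the construction of the classes, in part through the IL1B-led cluster. With doublets kept, 121 of the 239 nuclei of that cluster fell in a cluster named astrocyte-like and led by DIAPH3, TOP2A and NDC80. Its 166 nuclei held 104 C1q UMIs, and the microglia-like share was 60.1% in place of 77.2%. That setting added nuclei of replicate 1 alone, since replicate 2 had no doublet calls. The microglia-like share was 69.7% with the IL1B-led cluster left out and 53.1% when nuclei were assigned by their own marker UMIs. In replicate 1 the same alternatives gave 67.9%, 69.7% and 65.6%. A share above 50% of C1q UMIs stood in microglia-like nuclei under all 7 alternatives in both libraries.

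Microglia-like nuclei with an IL1B UMI were also set against those without, and no C1q gene was called. In replicate 1, the summed C1q level in CPM was 308 in 52 nuclei with IL1B and 270 in 783 without, and in replicate 2 it was 116 in 116 nuclei and 177 in 876. The share of nuclei with a C1q UMI was 44.2% with IL1B and 38.1% without in replicate 1, and 48.3% and 29.8% in replicate 2. The median depths were 1777 and 1719 UMIs in replicate 1 and 3039 and 1534.5 in replicate 2. The log2 fold change was -0.16 for C1QA (SE 0.37), -0.83 for C1QB (SE 0.45) and 0.13 for C1QC (SE 0.34), each with an edgeR adjusted p of 0.999. None of the 3 was called, against 0.0101% of 9877 genes. That is 1 gene, IL1B, which defined the sets, while 322 genes had an unadjusted p under 0.05. DESeq2 called 0 genes, and 17 had an unadjusted p under 0.05.

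At a finer resolution, a cluster led by MSR1, SLC40A1 and CD163, which encode a pair of scavenger receptors and an iron exporter of macrophages, came apart with 58 and 17 nuclei. It stayed unnamed. It had 362 C1q CPM in replicate 1 (exact Poisson 95% interval 255 to 500) and 606 in replicate 2 (347 to 985), and 41.4% and 41.2% of its nuclei had a C1q UMI. The larger microglia-like cluster at that resolution had 333 (302 to 367) and 268 (239 to 300). In replicate 2 the intervals did not overlap, with 16 C1q UMIs in the small cluster.

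In whole cells the C1q UMIs could not be placed in a class. A C1q UMI was found in 4 of 2162 barcodes of replicate 1 (0.185%, exact binomial 95% interval 0.0504 to 0.473%) and in 168 of 32500 of replicate 2 (0.517%, 0.442 to 0.601%). When barcodes were assigned by their own marker UMIs, 2 and 3 were microglia-like, and they held 0 C1q UMIs. In replicate 2, 98.9% of C1q UMIs lay in barcodes of no class. Carriers there had a median of 77.5 non-mitochondrial UMIs, against 67 in other barcodes. A UMI of another microglial marker was found in 7.14% of the carriers (12 of 168, 3.75 to 12.1%) and 2.15% of the others (1.99 to 2.31%). UMIs of 2 of the C1q genes were found in 5 of the 168 carriers (2.98%), and all 3 genes in 0. Only 4 of the carriers in replicate 2 and 0 in replicate 1 had at least 200 genes. The fits over such barcodes thus rest on 4 C1q UMIs from whole cells and called 0 of 3 genes, against 5982 of all 15291 tested.

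The genes that act after C1q were taken from the same fit with TMM factors. Of the 3 C1 proteases and early classical components tested, 2 were called lower in nuclei and 1 higher, against 22.4% and 29.8% of all genes. C1R, a protease of the C1 complex, had 1, 83, 185 and 149 UMIs in the order of libraries above and a log2 fold change of -3.47 (edgeR adjusted p = 6.00e-07). C1S, its partner, had 0, 9, 24 and 31 UMIs and -2.93 (edgeR adjusted p = 0.00485). C2 had 0 UMIs in both whole cells libraries, against 235 and 148 in nuclei, and was called higher in nuclei. On library size alone neither C1R (-0.31) nor C1S (0.18) was called. Unlike the C1q genes, C1R was no higher in microglia-like nuclei (6.20 and 4.41 CPM) than in oligodendrocyte precursor-like nuclei (11.9 and 16.2), and C1S had 0 UMIs in microglia-like nuclei of both libraries.

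Of 7 tested genes of C3 and the alternative and lectin pathways, 3 were called lower and 1 higher in nuclei, against 22.4% and 29.8% of all genes. C3, the protein on which the pathways meet, had 38, 896, 2056 and 1637 UMIs and -3.42 (edgeR adjusted p = 1.19e-06). CFD, the protease of the alternative pathway, had -3.07 and MASP2, a protease of the lectin pathway, 3.70. COLEC12, a scavenger receptor of the collectin family, stood at 0.00 and was not called with TMM factors. With library size alone 4 of the 7 were called higher and 0 lower, against 79.4% and 3.16% of all genes, and C3 had -0.44. C3 reached 626 and 351 CPM in microglia-like nuclei, and the next class, astrocyte-like, had 54.6 and 50.6. Of the 6 genes of this list with at least 50 UMIs in nuclei, 4 had their highest level in microglia-like nuclei in both libraries. The share of all genes with that pattern was not computed, so such counts, here and in the lists below, have no background to be read against.

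Among receptors and C1q-binding proteins, 3 of 12 tested genes were called lower in nuclei and 2 higher with TMM factors, against 22.4% and 29.8% of all genes. MEGF10, an engulfment receptor that binds C1q, had 3.53 and VSIG4, a macrophage receptor for C3 fragments, 3.71. LRP1, an endocytic receptor, had -1.44 and CALR, calreticulin, its partner in binding C1q tails, -2.59. With library size alone 8 of the 12 were called higher and 0 lower, against 79.4% and 3.16% of all genes, and the values of LRP1 and CALR were 1.56 and 0.49. Of 12 genes with at least 50 UMIs, 10 had their highest level in microglia-like nuclei in both libraries. Among these, ITGAM and TREM2 also stand in the marker list that named the class, so their place follows from the naming. VSIG4 reached 546 and 292 CPM there, and MEGF10 756 and 658, with 550 and 454 CPM of MEGF10 in oligodendrocyte-like nuclei.

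Of 6 regulators tested, 4 were called higher in nuclei and 0 lower with TMM factors, and 5 were called higher with library size alone, against 29.8% and 79.4% of all genes called higher. CSMD1 (5.37), CSMD2 (5.07), CSMD3 (4.71) and SUSD4 (3.52) encode membrane proteins with complement control domains, and 0 of the 6 genes with at least 50 UMIs had their highest level in microglia-like nuclei in both libraries. Of the terminal components, 0 of 3 tested were called with TMM factors, against 22.4% of all genes called lower and 29.8% called higher. C6 had 1.05 and C5 -0.35. With library size alone 2 of the 3, C6 and C8B, were called higher, as were 79.4% of all genes.

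Relatives of C1q share its globular domain. Of 12 tested, 3 were called higher in nuclei and 0 lower with TMM factors, against 29.8% and 22.4% of all genes. With library size alone all 12 were called higher, as were 79.4% of all genes. MMRN1, multimerin, had 2.43. C1QTNF7 had 0 UMIs in both whole cells libraries and 451 and 425 in nuclei. CAPRIN2 (-0.62) and COL8A1 (1.49) were not called with TMM factors. Of 14 relatives with at least 50 UMIs, 1 was highest in microglia-like nuclei in both libraries. It was CBLN3, named after its values were seen, at 11.3 and 12.9 CPM.

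The genes most like C1q across classes were ranked by Pearson correlation of log2(CPM + 1) with the summed C1q genes, over 14 sums of 7 classes in the same 2 libraries and among 11573 genes. The first 10 were RAP2C, CYBA, TYROBP, WTAP, PDE7A, GRN, BCL10, RBM39, RHOA and IFNGR1, with correlations of 0.977 down to 0.962. CYBA, a subunit of the phagocyte oxidase, had 74.4 and 48.2 CPM in microglia-like nuclei and at most 4.14 in any other class. GRN, progranulin, had 112 and 62.8, and at most 15.5 elsewhere. RBM39, an RNA-binding protein, had 681 and 570 and as much as 319 elsewhere, so the measure ranks the shape of the pattern and not its size. The microglial markers P2RY12 and TREM2 ranked 32 and 86, and DOCK8, with a correlation of 0.70, ranked 1574. The points share libraries and depth, and no test was made.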

How the data were processed

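The authors deposited 1 matrix of raw UMI counts per library, with no normalization. Per the file headers, whole cells were counted with Cell Ranger 6.0.1 and nuclei with 7.0.0, and the submitters' processing notes also list Cell Ranger 2.1.1 and STAR 2.7.2a. Genome build, annotation and intron counting are not given in the sources used here. The C1q genes and gene lists were chosen with earlier results of these data known.

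Counts over all deposited barcodes of a library were tested with edgeR 4.0.16 (quasi-likelihood, TMM, filterByExpr, Benjamini-Hochberg at 0.05). DESeq2 1.42.0 was an alternative. On simulated counts for this comparison, edgeR recovered 70% of 4-fold and 94.9% of 16-fold changes. P-values measure the spread between these libraries alone.

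Libraries were paired by the animals in their titles. Deviations from the mean of the kind correlated at -0.0449 within a pool, over 1791 genes.

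Nuclei with 200 genes or more and up to 5% mitochondrial UMIs (35 identifiers) were clustered with scanpy 1.11.5 (2000 variable genes, 30 components, 15 neighbours, Leiden resolution 0.5) without the C1q genes. Scrublet called 390 of 8700 nuclei in replicate 1 (4.48%, removed) and 0 of 8388 in replicate 2, where it did not work. Clusters were named from at least 3 markers raised 2-fold, with thresholds set after seeing the data. Of the C1q UMIs, 94 and 22 lay in barcodes left out. Named genes were the 10 most like C1q and at most 4 per list, those with most UMIs, while markers were named where called, and DOCK8, C8B and CBLN3 after their values were seen.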

Additional observations from a re-analysis of the deposited data

Results flagged for a closer look

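On the CPM scale, C1QA went in opposite directions in the pools between microglia-like nuclei with and without an IL1B UMI. The log2 fold change was 0.51 for sheep 1 and 2 and -0.65 for sheep 3 and 4. The share of nuclei with a C1QA UMI was higher with IL1B in both pools, 19.2% against 17.9% and 31.0% against 17.2%, at median depths of 1777 and 1719 UMIs and of 3039 and 1534.5 UMIs. Each pool has 1 nuclei library, and the difference was not tested.

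Barcodes left out of clustering also held C1q. Those of nuclei replicate 1, mostly called doublets, held 94 C1q UMIs in 505 barcodes, or 18.6 per 100, against 8.22 per 100 clustered nuclei. Those of nuclei replicate 2, which had no doublet calls, held 22 in 335, or 6.57 per 100, against 7.17. A count of 0 would allow up to 0.594 and 0.896 per 100.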

How the results depend on the processing

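Leaving out the IL1B-led cluster, and thinning for the share of nuclei with a C1q UMI, were chosen after seeing the data. Of the alternative values, 119 kept their direction and side of the threshold or stayed within the spread, 9 reversed, 8 lost their call and 27 moved further. Part of the 119 was fixed in advance. Leaving out a library of a pair moves the mean by less than the SD of the pair. The make-up values without single libraries could thus only be counted as kept, as could single-library values of unchanged direction. Numbers of called genes were counted as kept after smaller moves, such as from 8231 to 5657 for nuclei against whole cells. All values of C1QA, C1QB and C1QC in microglia-like against other nuclei kept their direction, and all but the single-library values, which have no test, kept their call.

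For nuclei against whole cells, library size alone gave 0.89 for C1QA, -0.67 for C1QB and 1.44 for C1QC. Barcodes with at least 200 genes gave 0.30, 0.19 and 0.78, on 4 C1q UMIs of whole cells. The replicate block gave -1.88 for C1QA and -1.62 for C1QC, and changed no call of C1QB. DESeq2 gave -1.26 for C1QC (adjusted p = 0.327). Leaving out single libraries gave -2.47 to -0.17 for C1QA and -2.12 to -1.48 for C1QC. That range of C1QC leaves out the fit without whole cells replicate 2, which gave 10.3 against 0 UMIs in whole cells. The make-up of C1q UMIs could not be computed in barcodes with at least 200 genes, since whole cells replicate 1 has 0 there. Called genes numbered 13035 with library size alone and 5471 with the replicate block, against 8231, and 4864 to 10007 without single libraries.

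For microglia-like against other nuclei, 5173 genes were called, and 8672 with doublets kept, 8738 with the 8% highest doublet scores removed, 7870 with the C1q genes in the clustering, 8483 with classes from own marker UMIs and 8796 without the IL1B-led cluster. For the IL1B contrast, C1QA was 0.10 without the IL1B-led cluster and -0.65 to 0.51 without single libraries, where the sign turned without nuclei replicate 2, and C1QC was -0.060 with no replicate block and -0.61 with at least 2 IL1B UMIs. Called genes there were 1, and 3 with library size alone, 0 with DESeq2, 6 with no filter, 0 with no replicate block, 4 with at least 2 IL1B UMIs and 11 without the IL1B-led cluster.

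The microglia-like share of C1q UMIs in replicate 1 was 65.3% at resolution 1.0 and 65.6% by own marker UMIs. In replicate 2 it was 60.1% with doublets kept, 65.7% with the highest doublet scores removed, 59.9% with the C1q genes in the clustering, 53.1% by own marker UMIs, 60.5% with at least 500 genes and 69.7% without the IL1B-led cluster. Thinned to 1000 UMIs, 27.6% and 20.2% of microglia-like nuclei had a C1q UMI, and 15.1% and 9.47% of carriers had 2 or 3 of the genes. Apart from the changes of construction named here, the cause was not tested. The 5 C1q UMIs of whole cells replicate 1 limit every comparison of the kinds, and with 2 libraries a kind no permutation test can pass.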
